A study of Mus musculus with 5 samples.

Results

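The genes described here encode 8 interferon-induced GTPases of the mouse: the guanylate-binding proteins Gbp2, Gbp3, Gbp5, Gbp6 and Gbp7, and the immunity-related GTPases Irgm1, Irgm2 and Igtp (also called Irgm3). An interval of a peak list was given to a member when the member had the nearest transcription start site (TSS) of any protein-coding gene, within 50 kb of the interval's centre. Over all 5 lists, 13 intervals were assigned to 5 of the 8 genes, out of 22238 protein-coding genes. Gbp2, Gbp3, Gbp7, Irgm1 and Irgm2 had at least 1 interval, and Gbp5, Gbp6 and Igtp had none.

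The study mapped the binding of 2 related transcription factors, IRF4 and IRF8, in wild type C57BL/6 mouse B cells by chromatin immunoprecipitation and sequencing (ChIP-seq). The first group was IRF8 in germinal centre (GC) B cells, sorted 13 days after immunisation with NP-KLH and not cultured. The others were IRF8 after 72 h, IRF8 after 48 h, IRF4 after 72 h and IRF4 after 48 h in naive spleen B cells cultured with 10 μg/ml of lipopolysaccharide (LPS), a bacterial cell wall component. Each group was 1 library, so no difference below has a replicate check, and none can be ascribed to a factor, a time or a cell state. No input library was analysed here.

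The lists held 1826 intervals (IRF8 GC), 1059 (IRF8 72 h), 234 (IRF8 48 h), 898 (IRF4 72 h) and 1573 (IRF4 48 h). The 4 LPS libraries held 3065426 to 4375858 tags, of which 0.18% (IRF8 48 h) to 0.82% (IRF4 48 h) fell in peaks. LPS peaks were 500 bp wide and carry the authors' deposited normalised tag count, scaled to 10000000 tags per library. GC intervals had a median width of 1144.5 bp, came from another caller and carry no tag count, so their depth is unknown, and caller, cell preparation and cell state cannot be told apart in any comparison with an LPS list. The IRF8 72 h header names a tag set with the ending rep2, and the sources used here do not say whether that is a repeat or a merged library.

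Guanylate-binding proteins and immunity-related GTPases are among the most strongly interferon-induced proteins of mouse cells. They gather on the vacuoles of intracellular bacteria and parasites, help to break them, and some of them promote inflammasome activation. Irgm1, Irgm2 and Igtp belong to the regulatory branch of the immunity-related GTPases, which sits on host membranes and keeps the effector members from acting on them. Promoters of such genes are known to carry the interferon-stimulated response element (ISRE), which IRF proteins bind, and STAT elements, which STAT dimers bind after interferon gamma. IRF4 and IRF8 also bind composite elements with the ETS factors PU.1 and SPIB (EICE) or with AP-1 proteins (AICE).

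The elements were searched as letters on both strands: the ISRE core as GAAA, any 2 bases and GAAA, the EICE as GGAA, any 2 bases and GAAA, the AP-1 site as TGACTCA or TGAGTCA, and the STAT element as TTC, any 3 bases and GAA. An ISRE and an EICE can share bases, and so can an EICE and a STAT element. A match is a description of the letters and does not show a bound site. The stretches that hold the ISRE core of each member with an interval are printed here, 5′ to 3′, because all 7 LPS peaks of the members lay over one of them. The build is mm9, and capitals mark the matches.

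Gbp7 lay on the plus strand of chromosome 3, and the stretch chr3:142193182-142193281 held 2 STAT elements, then the ISRE core as read on the opposite strand.
Gbp7: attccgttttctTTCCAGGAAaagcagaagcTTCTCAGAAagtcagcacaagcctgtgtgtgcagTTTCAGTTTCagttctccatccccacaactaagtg

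Gbp3, next to it on the same strand, held an ISRE core that shared bases with an EICE in its annotated 5′ exon at chr3:142223492-142223521. A pair of overlapping ISRE cores lay further upstream at chr3:142222943-142223002.
Gbp3: agcatggTTTCGATTTCAGTTCCttttatc
Gbp3 upstream pair: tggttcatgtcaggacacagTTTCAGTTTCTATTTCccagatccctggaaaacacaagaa

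Gbp2, also on the plus strand of chromosome 3, held an ISRE core at its start site, at chr3:142283558-142283587.
Gbp2: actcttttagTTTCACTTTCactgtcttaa

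Irgm1 is on the minus strand of chromosome 11, and its stretch at chr11:48684928-48684987 is given on that strand. It held 2 overlapping ISRE cores.
Irgm1: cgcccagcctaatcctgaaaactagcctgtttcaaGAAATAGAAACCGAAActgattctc

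Irgm2, on the plus strand of chromosome 11, held a STAT element, an EICE and an ISRE core run together at chr11:58028355-58028448. Igtp, upstream of it on the same strand, held a nearly identical stretch at chr11:58012964-58013057. Over these 94 bases, 90 were identical between the genes.
Irgm2: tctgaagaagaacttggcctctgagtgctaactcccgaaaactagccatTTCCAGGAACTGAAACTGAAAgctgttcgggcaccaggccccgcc
Igtp: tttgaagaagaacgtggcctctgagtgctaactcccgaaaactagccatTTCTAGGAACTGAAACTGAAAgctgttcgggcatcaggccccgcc

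The GC list named the most members. IRF8 intervals in GC B cells were assigned to 5 of the 8 genes, against 5.99% of all protein-coding genes in that list. In LPS cultures at 72 h, IRF8 peaks were assigned to 4 of 8 (Gbp3, Gbp7, Irgm1 and Irgm2), against 3.37% of all genes. The IRF8 48 h list named none of the 8, against 0.791% of all genes. IRF4 peaks were assigned to 2 of 8 at 72 h (Gbp3 and Gbp7), against 3.02% of all genes, and to 1 of 8 at 48 h (Gbp2), against 4.82%. Across the 5 lists together 5 of 8 members had an interval, against 11.8% of all genes, and across the 4 LPS lists again 5 of 8, against 7.96%. Without the IRF8 72 h list, the LPS lists named 3 of 8, and the share of all genes without that list is not given here.

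**Figure D1:**
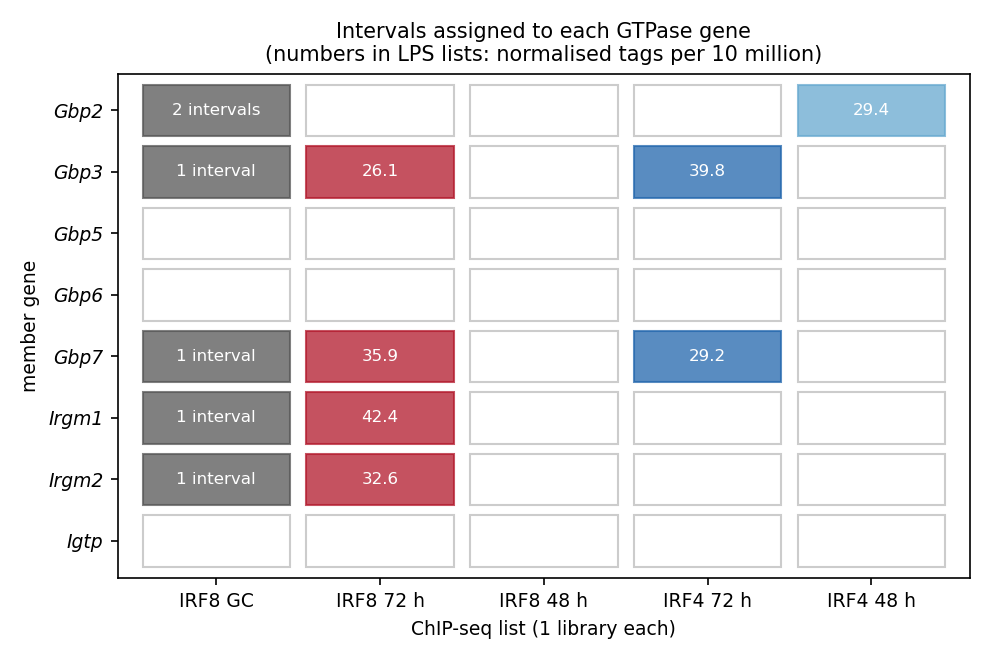
Each row is 1 of the 8 GTPase genes and each column 1 peak list. A filled cell is an assigned interval, with the authors' normalised tags per 10000000 written in the LPS columns and the number of intervals in the GC column. The GC column is filled for 5 genes, the IRF8 48 h column for none, and the rows of Gbp5, Gbp6 and Igtp are empty.

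Irgm1, which is needed for resistance of mice to mycobacteria and takes part in autophagy, had the strongest member peak. It lay at chr11:48684694-48685194 in the IRF8 72 h list with 42.4 normalised tags (95% Poisson interval 22.6 to 72.5), from 13 tags, and ranked 207 of 1059. Its centre was 22 bp upstream of a TSS, in an exon of a non-coding transcript. In the GC list Irgm1 had the interval chr11:48684346-48686248, which covers the same peak. The other 3 lists held no interval for it.

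The second immunity-related gene, Irgm2, is a regulator found on Golgi membranes. It had an IRF8 72 h peak at chr11:58028177-58028677 with 32.6 normalised tags (15.6 to 59.99), from 10 tags, at rank 514 of 1059. The peak centre was intergenic, 103 bp upstream of the TSS, and a GC interval lay at chr11:58027598-58028658. The remaining 3 lists held no interval for Irgm2.

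Gbp7 was present in 3 lists. The IRF8 72 h peak at chr3:142193010-142193510 had 35.9 normalised tags (17.9 to 64.2), at rank 317 of 1059. The IRF4 72 h peak at chr3:142193025-142193525 had 29.2 (14.6 to 52.3), at rank 468 of 898. Each rested on 11 tags, with centres 42 bp (IRF8) and 27 bp (IRF4) upstream of the TSS, and the GC interval chr3:142192706-142193782 covered both.

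Gbp3 was present in the same 3 lists as Gbp7. The IRF8 72 h peak at chr3:142223218-142223718 had 26.1 normalised tags (11.3 to 51.4), from 8 tags, at rank 899 of 1059. The IRF4 72 h peak at chr3:142223219-142223719 had 39.8 (22.3 to 65.7), from 15 tags, at rank 196 of 898. Both centres fell in an untranslated exon, 93 bp (IRF8) and 94 bp (IRF4) downstream of the nearest TSS. The GC interval chr3:142222686-142224235 ran across this place and also across the upstream ISRE pair, which neither LPS peak reached.

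Gbp2, a GTPase recruited to the vacuole of Toxoplasma, was the one member in the IRF4 48 h list. Its peak at chr3:142283342-142283842 had 29.4 normalised tags (14.1 to 54.1), from 10 tags, at rank 1226 of 1573, with the centre 7 bp upstream of a TSS in an untranslated exon. The GC list held 2 intervals for Gbp2. The interval chr3:142282364-142284159 covered the promoter peak, and chr3:142308777-142310032 lay in intergenic sequence 25.8 kb downstream of the TSS and 7.8 kb past the end of the gene.

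Member peaks were of ordinary height in their lists. The 7 LPS peaks ranged between 26.1 and 42.4 normalised tags, from 8 to 15 tags each. In the IRF8 72 h list the median of all peaks was 32.6 and the quartiles were 29.4 and 39.1, so that Irgm1 was above the upper quartile, Gbp3 below the lower one, and Gbp7 and Irgm2 between them. In the IRF4 72 h list, with a median of 29.2 and quartiles of 26.6 and 39.8, Gbp3 equalled the upper quartile and Gbp7 the median. In the IRF4 48 h list, with a median of 38.3, Gbp2 equalled the lower quartile of 29.4. All Poisson intervals of the 4 IRF8 72 h member peaks overlapped each other, so their order is within counting error.

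**Figure D2:**
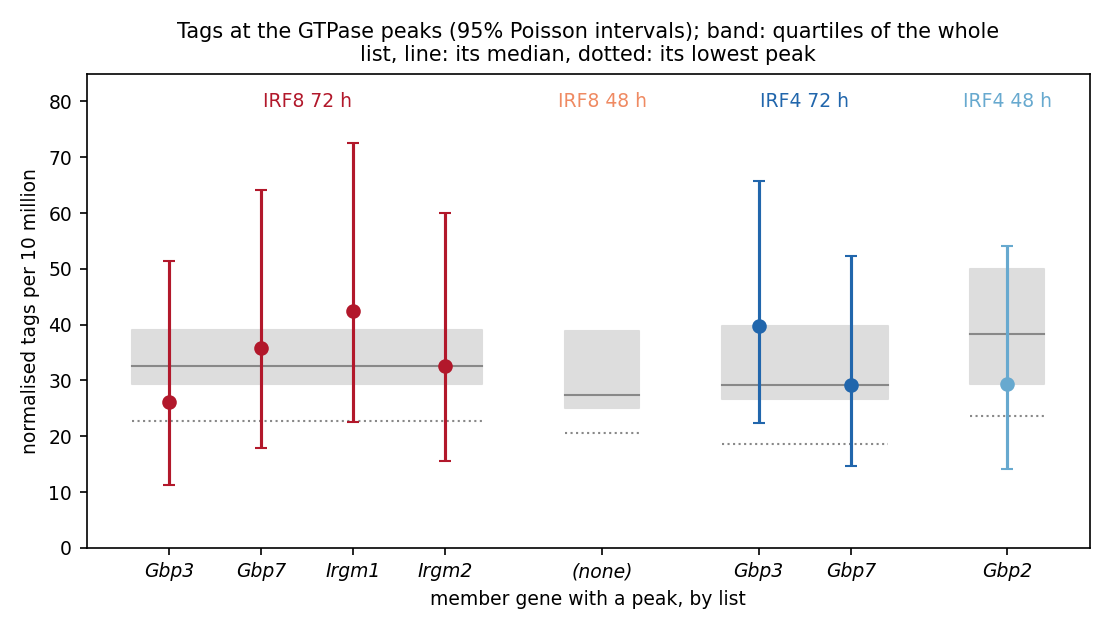
Points are the authors' normalised tags per 10000000 of each member peak, 1 library per list, with 95% Poisson intervals that cover counting error only. The grey band spans the quartiles of all peaks of the list, the line is the list's median and the dotted line its lowest peak. Points lie between 26.1 and 42.4, and every interval is wide and crosses the band of its list.

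The authors' caller gave further values for each peak. In the authors' deposited lists the fold over the surrounding 10000 bp was 23.22 for Gbp7, 16.47 for Irgm1, 12.67 for Gbp3 and 9.5 for Irgm2 at IRF8 72 h. For IRF4 the authors' deposited fold was 11.0 for Gbp7 and 10.96 for Gbp3 at 72 h, and 7.6 for Gbp2 at 48 h. Gbp7 thus had the highest local fold of the members at IRF8 72 h, although Irgm1 carried more tags there. At IRF4 72 h the folds of Gbp7 and Gbp3 were nearly equal, from 11 and 15 tags. The authors' deposited focus ratio, which measures how well tags are placed around the centre, was 0.929 for Irgm1, 0.909 for Irgm2, 0.857 for Gbp7 and 0.636 for Gbp3 at IRF8 72 h. It was 0.917 for Gbp7 and 0.824 for Gbp3 at IRF4 72 h, and 0.786 for Gbp2 at IRF4 48 h. The Gbp3 peak was therefore the least focused of the members in each 72 h list.

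IRF8 and IRF4 could be set against each other only at Gbp7 and Gbp3, the members listed for both factors at 72 h. Gbp7 had 35.9 normalised tags for IRF8, against 29.2 for IRF4, a log2 ratio of 0.30 (95% interval −1.05 to 1.64). Gbp3 had 26.1 for IRF8, against 39.8 for IRF4, a log2 ratio of −0.61 (−2.06 to 0.72). The ratios pointed in opposite directions and neither differed beyond counting error, with an adjusted p of 1 for each (exact binomial test on tags, two-sided, Benjamini-Hochberg over all 258 places shared by the 72 h lists). Of those 258 places 0.388% passed an adjusted p of 0.05, and their median log2 ratio was 0.04. The intervals leave room for a difference of 3.12-fold in favour of IRF8 at Gbp7 and for a ratio as low as 0.241 at Gbp3. No member place was shared by the lists of the other 3 pairs, IRF8 72 h over 48 h, IRF4 72 h over 48 h and IRF8 over IRF4 at 48 h.

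Whether a listed peak would have been seen in a library that did not list it was set against depth. For each of the 7 LPS peaks, the tags that the same density would give in every LPS library that did not list the place were computed, which made 17 pairs of a peak and a library. In 14 of 17 pairs the 95% interval reached below the lowest number of tags in any peak of that library. A peak of like density could thus have gone unlisted there. The interval covers the counting error of the listed peak and leaves out that of the other library. The 3 exceptions were Irgm1 in 2 libraries and Gbp3 in 1. Irgm1 would give 18.6 tags (9.88 to 31.7) in the IRF8 48 h library, whose lowest peak had 9 tags, and 15.97 (8.50 to 27.3) in the IRF4 72 h library, whose lowest had 7. Gbp3, at its IRF4 72 h density, would give 17.4 (9.75 to 28.7) in the IRF8 48 h library. Irgm2 would give 12.3 tags (5.89 to 22.6) in the IRF4 72 h library, within reach of its lowest peak. The lower ends of the exceptions were close to those lowest peaks. Since the counting error of the other library is left out, a peak of like density could have gone unlisted in these pairs too. Against the FDR tag threshold in the list headers, 9 to 11 tags, the interval reached below in 17 of 17 pairs, so by it no pair was an exception. Each LPS list also held peaks below that threshold. The lists further required a fold and a p-value over the local region, which could not be computed for unlisted places.

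The members' places recurred between lists. The 13 intervals merged into 6 places, of which 5 were in 2 or more lists, against 21.9% of all 4178 places. All 5 member places called in an LPS list were also in the GC list, against 13.3% of the 2713 LPS places. By list, 4 of 4 IRF8 72 h member peaks lay in a GC place (19.1% of all IRF8 72 h peaks), as did 2 of 2 of IRF4 72 h (19.4%) and 1 of 1 of IRF4 48 h (12.3%). As a share of the GC list, 4 of 6 member intervals were in the IRF8 72 h list (11.1% of all GC intervals). Of the 4 IRF8 72 h member peaks 2 were in the IRF4 72 h list (24.4% of all), and 2 of 2 IRF4 72 h member peaks were in the IRF8 72 h list (29% of all). Neither IRF4 72 h member peak was in the IRF4 48 h list, which held 60% of all IRF4 72 h peaks. The sharing with GC depends on the wide GC intervals: with centres required within 250 bp of each other, 2 member places were shared between LPS and GC. The share of all LPS places under that rule is not given here, so this count has no background.

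The peaks lay at promoters. All 7 LPS intervals and 5 of the 6 GC intervals of the members were centred within 1000 bp of the TSS. Among all assigned intervals of the same lists the share at promoters was 32.4% (IRF8 GC), 12.9% (IRF8 72 h), 18.2% (IRF4 72 h) and 11.7% (IRF4 48 h). The exception was the downstream GC interval of Gbp2.

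**Figure D3:**
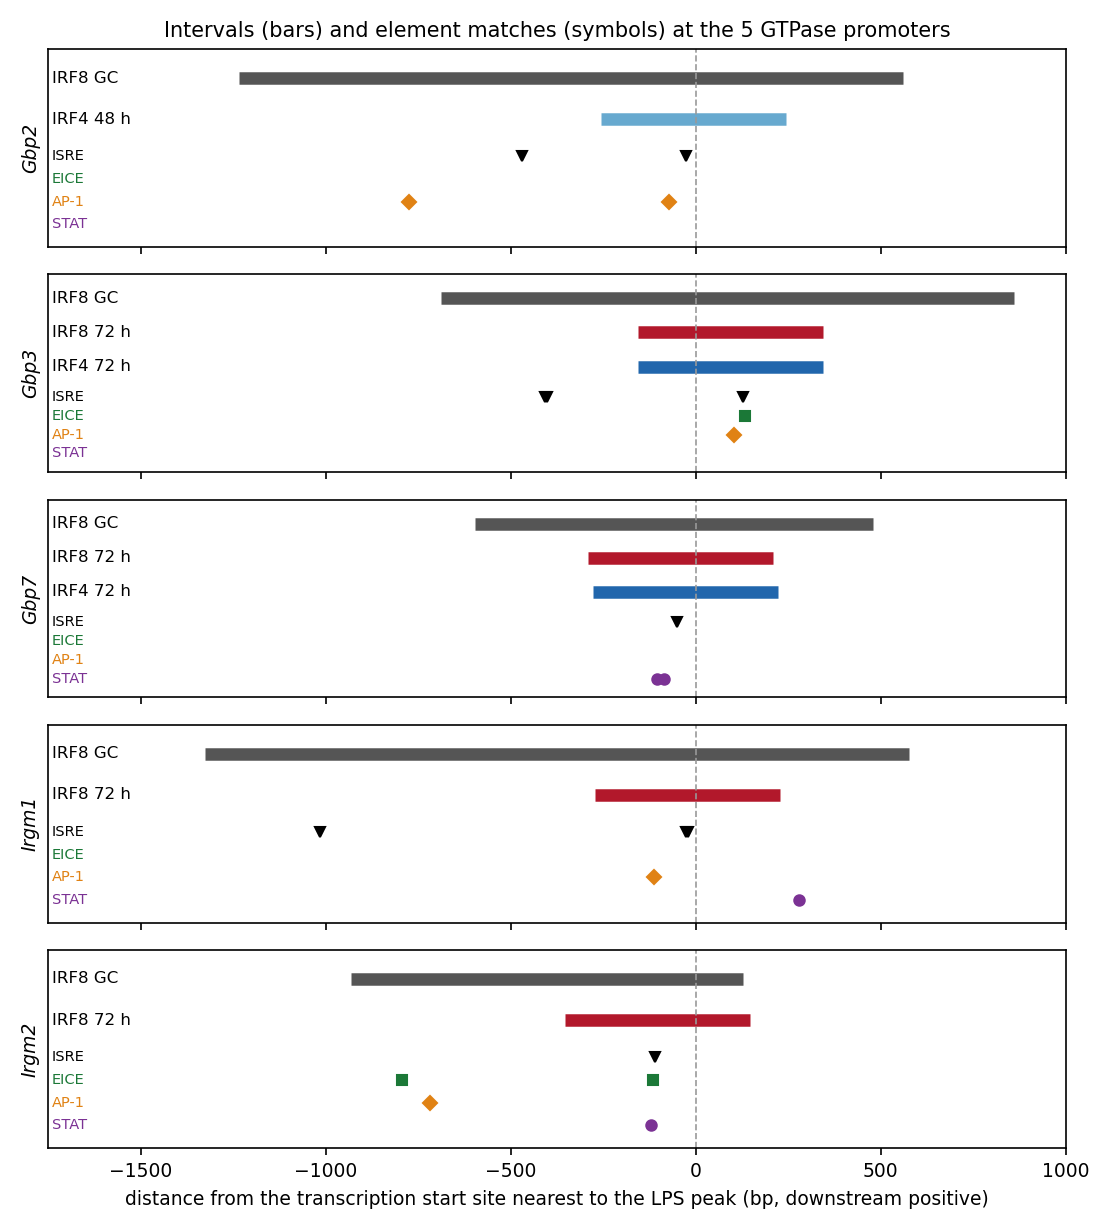
Each panel is the promoter of 1 gene, with distance in bp from the TSS nearest to its LPS peak and downstream to the right. Bars are intervals by list, and symbols are ISRE, EICE, AP-1 and STAT matches inside them. An ISRE core lies inside every bar, the LPS bars of Gbp3 stop short of its upstream ISRE pair, and Gbp7, Irgm1 and Irgm2 have the core just upstream of the start site.

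An ISRE core lay within 100 bp of the centre of all 7 LPS member peaks. For IRF8 72 h this was 4 of 4, against 12.1% of all peaks of the list and 33% of its promoter peaks. For IRF4 72 h it was 2 of 2, against 7.22% of all peaks and 9.09% of promoter peaks. For IRF4 48 h it was 1 of 1, against 4.54% of all and 3.47% of promoter peaks. In the GC list 3 of 6 member intervals had the core within 100 bp of the centre (13.5% of all). Somewhere in the interval, 6 of 6 had it, against 37.4% of all GC intervals and 35.5% of those at promoters. Both member counts include the downstream Gbp2 interval, 25.8 kb from the TSS, which is not at a promoter and holds a run of 21 matches. A wider interval has more room for a match, and the GC list had a median width of 1144.5 bp. The intervals of Irgm1 (1903 bp), Gbp2 (1796 and 1256 bp) and Gbp3 (1550 bp) were wider. Those of Gbp7 (1077 bp) and Irgm2 (1061 bp) were narrower.

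The cores were close to the peak centres. At Irgm1 the overlapping cores were 2.5 and 3.5 bp from the IRF8 72 h centre, at Irgm2 the core was 7.5 bp away, and at Gbp7 it was 8.5 bp away. At Gbp7 the IRF4 centre was 23.5 bp from the core, further than the IRF8 centre. At Gbp3 the distance was 35.5 bp for IRF8 and 34.5 bp for IRF4, and at Gbp2 it was 19.5 bp for IRF4 48 h. From the TSS nearest to the LPS peak, the first base of the core was at −55 (Gbp7), −31 (Gbp2), −115 (Irgm2), −30 and −24 (Irgm1). In Gbp3 it was at +124, inside the transcribed region. These positions depend on the start used, since each gene has 2 to 6 annotated start sites. The Gbp2 core lay past another annotated start, at 142283566, and the Irgm1 cores past one at 48685185. As in the sequences printed above, the LPS-peak cores of the 3 guanylate-binding genes read on the strand opposite to the gene, and those of the 2 immunity-related genes on the gene's own strand.

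**Figure D4:**
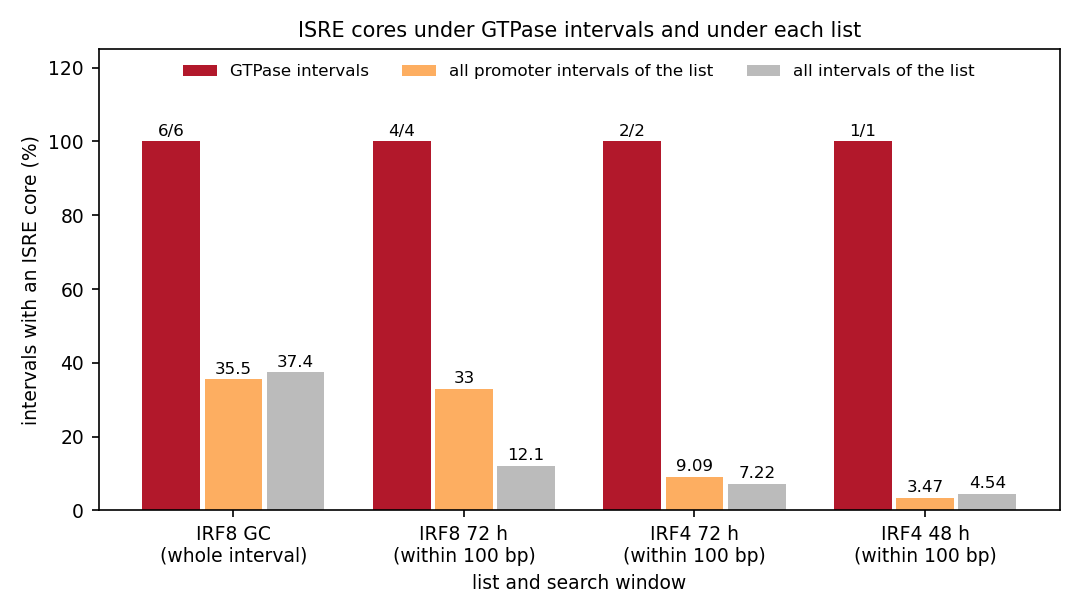
Bars give the percentage of intervals with an ISRE core for the GTPase genes, for all promoter intervals and for all intervals of each list, from 0, with the member counts written above. The member bars are 6 of 6 (GC, whole interval), 4 of 4, 2 of 2 and 1 of 1, and rest on few intervals. The GC member bar includes the downstream interval of Gbp2, which is not at a promoter.

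The other elements differed between members. Gbp7 had 2 STAT elements and neither an EICE nor an AP-1 site, and Irgm2 had a STAT element and an EICE joined to its ISRE core. Gbp3 had an EICE joined to the core and an AP-1 site, while Irgm1 and Gbp2 had an AP-1 site and no EICE or STAT element near the LPS peak. Counted by list, an EICE lay under 2 of 4 IRF8 72 h member peaks (22.1% of all) and 1 of 2 at IRF4 72 h (25.6%). An AP-1 site lay under 2 of 4 at IRF8 72 h (8.02%), 1 of 2 at IRF4 72 h (18.5%) and the 1 at IRF4 48 h (28.7%). A STAT element lay under 2 of 4 at IRF8 72 h (4.87%), 1 of 2 at IRF4 72 h (7.56%) and 0 of 1 at IRF4 48 h (6.46%). Over the whole GC intervals 2 of 6 held an EICE (23%), 4 of 6 an AP-1 site (23.8%) and 3 of 6 a STAT element (32.2%). The sole AICE match of a member, of the AICE2 form, began at −778 of Gbp2, inside its GC interval and outside its LPS peak.

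The downstream GC interval of Gbp2 was unlike the others. It held 21 overlapping or adjoining ISRE matches in 1 run, and 22.5% of its central words of 24 bases occurred more than once in the genome, the commonest 5347 times. At the promoter peaks of Gbp3, Gbp7 and Irgm1 the share of such words was 0%, as it was for the Gbp2 peak of IRF4 48 h. At Irgm2 the share was 49.4% for the IRF8 72 h peak, with at most 2 copies, and for the matching stretch of Igtp it was 42.7%. Whether reads with several matches were kept is not given in the sources used here, so part of the Irgm2 tags cannot be placed with certainty between Irgm2 and Igtp.

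Gbp5, Gbp6 and Igtp had no interval. Gbp5, which takes part in NLRP3 inflammasome activation, was 33.3 kb from the nearest interval, the GC interval of Gbp7. Gbp6, on chromosome 5, was 154 kb from the nearest interval, an IRF8 72 h peak assigned to Gbp4. Igtp, a regulator on the endoplasmic reticulum that mice need against Toxoplasma, was 15.0 kb from the Irgm2 GC interval downstream and 15.7 to 15.9 kb from intervals upstream that belong to Mrpl22 by the rule.

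An ISRE core was also present at members without an interval. RefSeq promoter windows of the GRCm38.p6 build, 300 bases from 250 before the start, were used for 7 of the 8 genes, all but Gbp6, and their letters matched mm9 base for base. All 7 genes had an ISRE core in a window. Of their 8 windows, all but the downstream window of Gbp3 held a core, against 3.44% of the 32851 windows of all genes. At Gbp3 the cores in the upstream window were the upstream pair, which neither LPS peak reached. Igtp had a core at −34 and Gbp5 at −165 from the RefSeq start. Among these 7, the presence of a core thus did not separate the genes with an interval from those without. The stretch of Gbp5 with its core, at chr3:142159713-142159772 of mm9 on the plus strand, is given with the core in capitals.
Gbp5: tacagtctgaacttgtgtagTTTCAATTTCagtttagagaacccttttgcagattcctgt

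The Igtp stretch printed above matched a STAT element, an EICE and an ISRE core, as that of Irgm2 did.

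Among the places that the rule of the nearest gene left out near the immunity-related genes of chromosome 11, 1 held ISRE cores. At chr11:57997059-57997559 IRF8 72 h had 45.7 normalised tags (24.97 to 76.6), more than any member peak, at rank 164 of 1059 and with 2 ISRE cores within 100 bp of its centre. IRF4 72 h had 23.9 (10.9 to 45.4) at chr11:57997138-57997638, a log2 ratio of IRF8 over IRF4 of 0.93 with an adjusted p of 0.901 in the exact binomial test. The GC list held chr11:57996221-57998016. Its assigned gene, Mrpl22, encodes a mitochondrial ribosomal protein and started 12.1 kb from the IRF8 peak centre, nearer than Igtp.

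Of 15 further guanylate-binding, immunity-related and giant GTPase genes, 5 had a GC interval (Gbp1, Gbp9, Gvin1, Ifi47 and Tgtp1), against 5.99% of all genes. In the IRF8 72 h list 1 of 15 did, Gbp4, against 3.37%. The IRF8 48 h, IRF4 72 h and IRF4 48 h lists held none, against 0.791%, 3.02% and 4.82% of all genes, and 1 of 15 in any LPS list stood against 7.96%. The Gbp4 peak had 29.4 normalised tags, 80 bp upstream of the TSS, and none of the searched elements in the interval. In it 64.6% of the words occurred more than once in the genome, and in the GC interval of Gbp9 73.6%. At Tgtp1, an effector immunity-related GTPase, the GC interval was centred 97 bp upstream of the TSS. It held an ISRE core, an EICE and a STAT element within 100 bp. The other GC intervals differed from it. Those of Gbp1, Gbp9 and Gvin1 held no ISRE core. That of Ifi47, 4.93 kb from the TSS, held a core, but not within 100 bp of its centre. Of these, only the Gbp9 interval lay at a promoter, 201 bp from the TSS.

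Genes of interferon signalling were listed for both factors. Of 12 such genes 5 had a GC interval: the receptor chains Ifnar2 and Ifngr2, the kinases Jak1 and Jak2, and the feedback inhibitor Socs1. The share over all genes was 5.99%. IRF8 72 h named 2 of 12 (3.37% of all genes), Ifnar2 with 81.6 normalised tags 25.1 kb upstream of the TSS, and Socs1 with 35.9 at the promoter and 26.1 at 44.2 kb. Both Socs1 peaks held 2 ISRE cores, while the Ifnar2 peak held an EICE. IRF8 48 h named 1 of 12 (0.791% of all), Ifnar2 with 25.1 at the same place, and IRF4 72 h none (3.02% of all). IRF4 48 h named 3 of 12 (4.82% of all): Ifnar1 (38.3 normalised tags), Jak2 (32.4 and 29.4) and Tyk2 (29.4), at 4.76 to 38.3 kb from the TSS and none with an ISRE core.

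A list of 17 genes held partners of the GTPases in ATG8 conjugation and in inflammasomes, and also Traf6 and Trim21. Of these 17, 6 had an interval in any list, against 11.8% of all genes. GC intervals were assigned to 3 of 17 (Atg5, Casp1 and Gabarap), against 5.99% of all genes, and IRF8 72 h peaks to 3 of 17 (Atg5, Traf6 and Trim21), against 3.37%. IRF8 48 h named 1 of 17 (Nlrp3), against 0.791%. Each IRF4 list named 1 of 17, Atg5, against 3.02% at 72 h and 4.82% at 48 h. Trim21, an interferon-induced ubiquitin ligase, had 39.1 normalised tags 16 bp upstream of its TSS, with 2 ISRE cores. Atg5, needed to attach ATG8 proteins to membranes, had 91.3 at IRF4 48 h, 34.9 kb from the TSS, the highest value among the genes of these lists.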

How the data were processed

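Binding was measured by ChIP-seq in 5 libraries, 1 per group by the sample titles and antibody labels. For the 4 LPS lists the authors ran HOMER findPeaks, per the file headers, set to peaks of 500 bp that lie at least 1000 bp apart, 1 tag per position, FDR 0.001, and a 4-fold excess and Poisson p of 1e-04 over the local 10000 bp. The signal of a deposited peak is the authors' normalised tag count per 10000000 tags. The deposited findPeaks score is the count of tags in a peak, per the file headers. The focus ratio is a fraction, the local and clonal folds are ratios, and the p-value is the authors' Poisson value, all per the file headers and untested here. The deposited GC list gives positions alone and was called with MACS, per the series' design text. The submitters' processing notes name Bowtie2 and BWA and the build mm9; the aligner of each library is not settled.

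Normalised counts multiplied by the library total gave whole tags within 0.05 for every LPS peak. Those tags gave exact Poisson intervals at 95% and exact binomial tests between 2 libraries, tested on simulated data, with Benjamini-Hochberg adjustment over all shared places. Intervals cover counting error only, since duplicate molecules could not be told from independent ones. Genes came from GENCODE M1 on NCBIM37 (mm9), within 50 kb. Intervals overlapping by 1 bp or more made 1 place. Elements were searched within 100 bp of the centre and in whole intervals, and words of 24 bases were counted on both strands of mm9. The signalling list held 12 matched genes. All 8 members are named, and of the further lists every gene with an interval may be named. Some items that these rules select are not reported here. The members, lists and rules were chosen with earlier results of these data known. Tools were Python 3.11.15, NumPy 2.4.6, SciPy 1.17.1, pysam 0.24.0 and matplotlib 3.10.9. Alternatives changed the assignment, the threshold, the scaling, the overlap, the element window and, chosen after seeing the data, the lists used.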

Additional observations from a re-analysis of the deposited data

How the results depend on the processing

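Of 65 alternatives computed, 53 stayed within 1.5 times the reported count or kept direction and call, and none turned a direction. Some of them could not change. Leaving out the IRF8 48 h list, which named no member, could not alter a count. The GC list alone named 5 members, so leaving out any LPS list could not lower the count over all lists. Giving each peak to every protein-coding gene within 50 kb raised the members named to 2 at IRF4 48 h and 6 at IRF4 72 h, against 1 and 2 reported. Keeping only peaks at or above the pooled median of 32.6 normalised tags left 0 members at IRF4 48 h and 1 at IRF4 72 h, 0 and 1 member peaks with an ISRE core in those lists, and 0 places that differed between IRF8 and IRF4 at 72 h, against 1 reported. Scaling by the median ratio of shared places also left 0 such places. At that tag threshold Gbp3 and Gbp7 gave no ratio, since a peak of each fell below it. Without the IRF8 72 h list the LPS lists named 3 members, against 5. Searching whole GC intervals gave 6 member intervals with an ISRE core, against 3 near the centre. With centres within 250 bp, 2 member places were in 2 or more lists and 2 were shared between LPS and GC, against 5 and 5. The shares over all genes or places under these alternatives are not given here, so the member counts have no background. Member peaks rested on 8 to 15 tags, so differences between libraries carry wide counting error. In 14 of 17 pairs a peak of like density could have gone unlisted by the lowest listed tags, and in 17 of 17 by the FDR tag threshold. The cause of an absent peak was not tested. The IRF8 48 h library, which named no member, held the most tags of the LPS libraries, 4375858, and the smallest share in peaks, 0.18%. No paired analysis was possible because each group has 1 library.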

Other observations

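Genes were compared with Gbp7, the member found in the most lists with the higher IRF8 72 h count, by the distance of log2 normalised tags over its 2 LPS lists. Of the protein-coding genes outside the families, 21 were in the same 3 lists as Gbp7. Among the nearest were Rps6ka1 (distance 0.12), St3gal2 (0.14), Cep170 (0.19) and Etv6 (0.19). Rps6ka1, a ribosomal S6 kinase, had 39.1 normalised tags for IRF8 and 29.2 for IRF4 at 72 h, and Etv6, an ETS family repressor, had 32.6 for IRF8 and 26.6 for IRF4. With 2 LPS values per gene, such closeness is a description of these libraries.

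Near Irgm1, IRF4 peaks lay 29.4 kb upstream of the TSS in both IRF4 lists, with 26.6 normalised tags at 72 h and 29.4 at 48 h. They were assigned to Gm5431 and held none of the searched elements. A GC interval without a searched element lay 17.3 kb downstream of the Irgm1 TSS and was assigned to Trim7.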
